A study of Homo sapiens with 12 samples.

Results

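The transcripts described here belong to the NRF2 antioxidant pathway. Their 9 genes were picked by symbol from a table of 26334 genes as known parts of the pathway, by a rule that uses no measured value but was set with earlier results of these data known. They fall into 3 regulators (NFE2L2, KEAP1 and MAFG) and 6 target genes for enzymes and a transporter (NQO1, GCLC, GCLM, TXNRD1, SRXN1 and SLC7A11). All 9 genes passed the filter on low counts. The libraries come from shA673-1c, a line of the Ewing sarcoma cell line A673, grown under blasticidin and zeocin selection and exposed to 5 µM actinomycin D, which blocks RNA synthesis by binding DNA. RNA was taken at 0, 1, 2 and 4 h, with 3 biological replicates per time point and 12 poly(A) RNA-Seq libraries in all. The 0 h libraries stand as the untreated control, every library comes from the same line, and nothing was harvested without the drug at a later time. Loss of a transcript after the block is the basis for an RNA half-life.

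NFE2L2 encodes NRF2, a basic leucine zipper transcription factor. KEAP1 is the adaptor that delivers NRF2 to a CUL3 ubiquitin ligase for degradation, and electrophiles or oxidants acting on KEAP1 spare it. NRF2 then pairs with a small MAF protein such as MAFG at antioxidant response elements, where it drives genes for quinone reduction, glutathione synthesis and thioredoxin recycling.

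The libraries held 9147018 to 11194705 counts. Of 8 markers of the line, 6 had at least 7 counts in every library, among them STEAP1 (499 to 708) and FLI1 (143 to 908), CCK had 1 to 16, and CD99 was listed at 0 throughout. Of 10 markers of endothelial, blood and epithelial cells, 9 stayed at or under 6 counts and the erythroid gene HBB had 20 to 67. MYC, whose mRNA is known to be short-lived, fell from 134.3 ± 11.5 CPM (the count as a share of the scaled library total) at 0 h to 8.36 ± 2.75 at 4 h (mean ± SD, n = 3). No spike-in RNA was in the table, so every level below is relative to the other transcripts of its library, scaled by the trimmed mean of M-values (TMM). A loss of RNA common to all transcripts, per cell or through fewer cells, does not show in such levels. A fall is a shrinking share of the library. A rise likewise is a growing share of the library and does not show more molecules.

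After transcription was blocked, 6 of the 9 transcripts fell (NFE2L2, GCLC, MAFG, SRXN1, KEAP1 and GCLM), 1 rose (NQO1), and TXNRD1 and SLC7A11 did not pass the threshold. The test was the slope of log2 level on time in hours (edgeR's quasi-likelihood test, adjusted p below 0.05 over 12032 genes). Among all tested genes, 32.1% fell and 30.7% rose by the same rule, so falling transcripts made up a larger share of the members (66.7%) than of the table. The steepest slope was that of NFE2L2, at the 8.80 percentile from the lowest of all tested genes, and the highest was that of NQO1, at the 76.4 percentile.

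NFE2L2, the factor itself, had 135.0, 137.1 and 132.3 CPM in replicates 1, 2 and 3 at 0 h, then 132.3, 124.1 and 118.5 CPM at 1 h. The level reached 97.4, 89.6 and 91.5 CPM at 2 h and 57.3, 50.2 and 45.9 CPM at 4 h. The libraries at 2 h and at 4 h lay below all those of the time before, with no overlap, and 37.9% of the starting mean was left at 4 h. The slope was -0.36 log2 units per hour (SE 0.026, adjusted p = 8.55e-09, edgeR), or 2.75 h of half-life (2.57 to 2.96 h at 1 SE). The slopes of the single replicates were -0.33, -0.38 and -0.39.

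KEAP1, the adaptor that marks NRF2 for destruction, held 108.1, 100.9 and 106.9 CPM at 0 h and 109.5, 104.9 and 101.7 CPM at 1 h. At 2 h it was at 106.5, 94.5 and 98.8 CPM, and only at 4 h, with 76.8, 72.7 and 72.9 CPM, did all libraries lie below those of every earlier time. Its slope was -0.13 (SE 0.020, adjusted p = 2.66e-05, edgeR). By a straight line that is 7.61 h of half-life (6.60 to 8.98 h at 1 SE), longer than the time observed. The slopes in the single replicates were -0.13, -0.13 and -0.14.

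MAFG, the small MAF partner, started at 103.0, 89.4 and 93.0 CPM and came to 88.9, 73.6 and 81.3 CPM at 1 h. It stood at 68.6, 55.7 and 63.0 CPM at 2 h and then at 66.7, 58.2 and 62.9 CPM at 4 h. The means at 2 and 4 h were 62.4 and 62.6 CPM, and the libraries of these 2 times overlapped. The slope over the whole course was -0.15 (SE 0.029, adjusted p = 2.09e-04, edgeR), or 6.46 h of half-life by a straight line. Its canonical exons overlap those of SIRT7 on the same strand (mean 163.1 counts), so reads of the 2 genes may have been shared. The exons of SRXN1 likewise overlap those of another gene, ENSG00000270299, on the same strand. Genes on the opposite strand overlap exons of NFE2L2, MAFG, NQO1, GCLC and SLC7A11, and reads of both strands cannot be told apart where the counting ignored strand, which is not given in the sources used here.

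**Figure D1:**
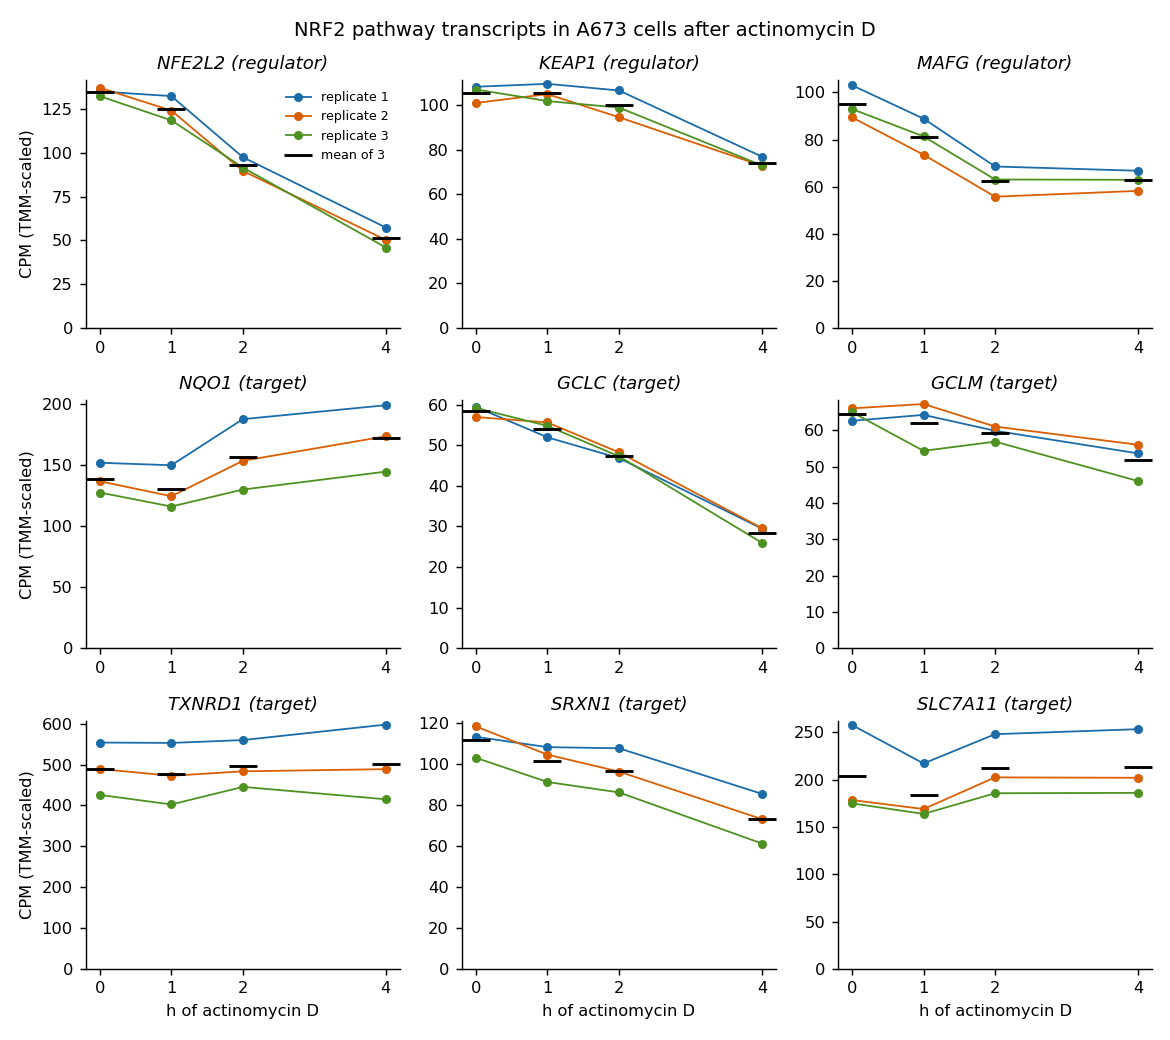
TMM-scaled CPM of the 9 transcripts (y axis, from 0) against hours of actinomycin D (x axis), with a coloured line for each of 3 replicates and a black bar for their mean. NFE2L2 drops from a mean of 134.8 to 51.1 CPM and NQO1 climbs from 138.7 to 172.4 CPM, while replicate 1 lies above the others at every time for NQO1, TXNRD1 and SLC7A11.

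Among the targets, GCLC fell most. It encodes the catalytic subunit of glutamate-cysteine ligase, the rate-limiting enzyme of glutathione synthesis, and had 59.4, 56.9 and 59.2 CPM at 0 h and 52.0, 55.6 and 54.8 CPM at 1 h. It went on to 46.8, 48.2 and 47.3 CPM at 2 h and 29.5, 29.6 and 26.0 CPM at 4 h, each time below all libraries of the time before. The slope was -0.26 (SE 0.024, adjusted p = 9.44e-08, edgeR), or 3.80 h of half-life (3.48 to 4.17 h at 1 SE).

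GCLM, the modifier subunit of the same ligase, moved far less. Its levels were 62.6, 66.0 and 64.9 CPM at 0 h, 64.2, 67.2 and 54.3 CPM at 1 h, 59.8, 61.0 and 56.8 CPM at 2 h and 53.6, 56.0 and 46.0 CPM at 4 h. The 4 h libraries were below those of 0 h without overlap, but overlapped those of 1 h. The slope was -0.079 (SE 0.021, adjusted p = 0.00314, edgeR), or 12.7 h of half-life (10.1 to 17.2 h at 1 SE), longer than the time observed.

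SRXN1, sulfiredoxin, restores over-oxidised peroxiredoxins. It ran from 113.2, 118.2 and 102.9 CPM at 0 h through 108.1, 104.5 and 91.1 CPM at 1 h and 107.6, 96.2 and 86.0 CPM at 2 h to 85.3, 73.0 and 61.1 CPM at 4 h. All 4 h libraries were below all 0 h and 2 h libraries. The slope of -0.15 (SE 0.027, adjusted p = 1.32e-04, edgeR) gave 6.69 h of half-life (5.67 to 8.15 h at 1 SE), and the single replicates spread from -0.10 to -0.18.

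NQO1, a quinone reductase and a classical NRF2 target, was the only member with a positive slope past the threshold. Its levels were 151.9, 136.7 and 127.5 CPM at 0 h, 149.8, 124.5 and 116.0 CPM at 1 h, 187.5, 153.4 and 129.9 CPM at 2 h and 198.9, 173.5 and 144.6 CPM at 4 h. In each replicate the 4 h level exceeded that at 0 h, yet the groups overlapped. The slope was 0.093 (SE 0.033, adjusted p = 0.0206, edgeR). It lost significance without replicate 2 (adjusted p = 0.133, edgeR) and under scaling to library totals (0.054, adjusted p = 0.144, edgeR).

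TXNRD1, the cytosolic thioredoxin reductase, is a selenoprotein that keeps thioredoxin reduced with NADPH. Its levels were 554.1, 489.3 and 425.9 CPM at 0 h, 553.2, 472.7 and 402.5 CPM at 1 h, 560.1, 483.6 and 445.5 CPM at 2 h and 598.1, 489.0 and 415.1 CPM at 4 h, with a slope of 0.012 (SE 0.031, adjusted p = 0.753, edgeR). SLC7A11, the cystine-importing subunit of system xc-, was at 257.7, 178.4 and 174.9 CPM at 0 h, 217.1, 168.9 and 163.7 CPM at 1 h, 248.1, 202.4 and 185.6 CPM at 2 h and 253.4, 202.0 and 186.0 CPM at 4 h. Its slope was 0.032 (SE 0.038, adjusted p = 0.480, edgeR). For both transcripts the range over replicates at each time was wider than any change of the mean in time.

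Replicate 1 was the highest of the 3 at all 4 times for KEAP1, MAFG, NQO1, TXNRD1 and SLC7A11. Its level was on average 1.24 times the mean of the other two replicates for NQO1, 1.25 times for TXNRD1 and 1.34 times for SLC7A11, against 1.00 times for GCLC and 1.02 times for GCLM. The offset was widest in the 3 that did not fall. With the replicate number as a block, NQO1 had a slope of 0.091 (SE 0.017, adjusted p = 1.31e-04, edgeR), and no call of a member's slope changed.

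Divided by the length of the canonical transcript, the levels at 0 h were 126.9 ± 16.6 CPM per kb for TXNRD1, 55.1 ± 0.99 for NFE2L2, 55.0 ± 4.88 for NQO1, 44.1 ± 3.09 for SRXN1 and 41.1 ± 1.52 for KEAP1 (mean ± SD, n = 3). The lower levels were 21.1 ± 4.86 CPM per kb for SLC7A11, 18.8 ± 1.40 for MAFG, 15.5 ± 0.36 for GCLC and 13.2 ± 0.36 for GCLM. Of neighbours in this order, NFE2L2 and NQO1, SRXN1 and KEAP1, and SLC7A11 and MAFG overlapped in their 3 libraries, and the others did not overlap.

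**Figure D2:**
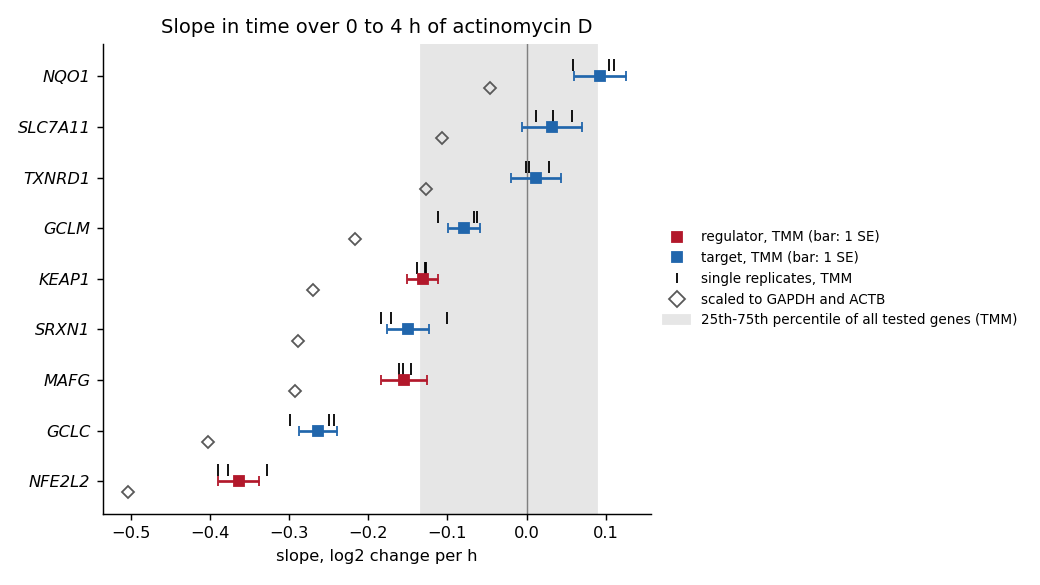
Slope in time (x axis, log2 change per hour) of each transcript (y axis) under TMM scaling as a square with a bar of 1 SE, the slopes of single replicates as ticks, and the slope under scaling to GAPDH and ACTB as an open diamond; the grey band runs from the 25th to the 75th percentile of all tested genes. NFE2L2 (-0.36) and GCLC (-0.26) lie left of the band, NQO1 (0.093) lies at its right edge, and all diamonds are below 0.

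The scaling set where 0 lies. GAPDH and ACTB, which are commonly used as stable references, had slopes of 0.15 and 0.12 under TMM. When each library was scaled to their counts, the median slope over all tested genes moved from 0.0093 to -0.13 and all 9 members had slopes below 0. TXNRD1 (-0.13, adjusted p = 5.93e-05, edgeR) and SLC7A11 (-0.11, adjusted p = 0.00438, edgeR) then fell, and NQO1 stood at -0.046 (adjusted p = 0.118, edgeR). The half-life came to 1.99 h for NFE2L2, 2.48 h for GCLC, 3.42 h for MAFG, 3.46 h for SRXN1, 3.71 h for KEAP1 and 4.60 h for GCLM. Among all tested genes 64.2% fell and 0.931% rose under this scaling.

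A ratio of 2 transcripts within a library does not depend on any scaling, and 6 such ratios were followed in time. Each was tested with an exact permutation test of the time labels over the libraries (two-sided, 369600 arrangements), with Benjamini-Hochberg adjustment over the 6 pairs. All 6 slopes passed. The pairs were formed by role from members chosen with earlier results of these data known. The share passing among other pairs of genes was not computed. Among all tested genes 32.1% fell and 30.7% rose, so a passing ratio cannot be read as particular to these pairs.

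The ratio of NFE2L2 to KEAP1, the factor to its inhibitor, was 1.28 at 0 h, 1.19 at 1 h, 0.93 at 2 h and 0.69 at 4 h. Its log2 slope was -0.23 ± 0.030 per hour (mean ± SD of 3 replicates, exact permutation p = 2.71e-06, the smallest the test can give, adjusted p = 1.62e-05). The ratio of NFE2L2 to MAFG, the factor to its partner, was level at first (1.42, 1.54 and 1.49 at 0, 1 and 2 h) and dropped to 0.81 at 4 h. Over the whole course its slope was -0.21 ± 0.041 (exact permutation, adjusted p = 0.00349). The ratio of NFE2L2 to NQO1, a regulator to a target, went from 0.97 at 0 h and 0.97 at 1 h to 0.60 at 2 h and 0.30 at 4 h, a slope of -0.46 ± 0.022 (exact permutation, adjusted p = 5.68e-05).

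Within the targets, the 2 subunits of glutamate-cysteine ligase drew apart. The ratio of GCLC to GCLM, catalytic to modifier, was 0.91 at 0 h, 0.88 at 1 h, 0.80 at 2 h and 0.55 at 4 h, a slope of -0.19 ± 0.007 (exact permutation, adjusted p = 2.60e-04). SLC7A11 supplies the cysteine that this ligase uses, and its ratio to GCLC rose from 3.42 to 7.48 (slope 0.30 ± 0.036, exact permutation, adjusted p = 4.19e-04). The ratio of TXNRD1 to SRXN1, which serve the thioredoxin and peroxiredoxin cycle, rose from 4.38 to 6.83 (slope 0.16 ± 0.029, exact permutation, adjusted p = 1.52e-04). In all 6 pairs the 3 replicates moved the same way.

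**Figure D3:**
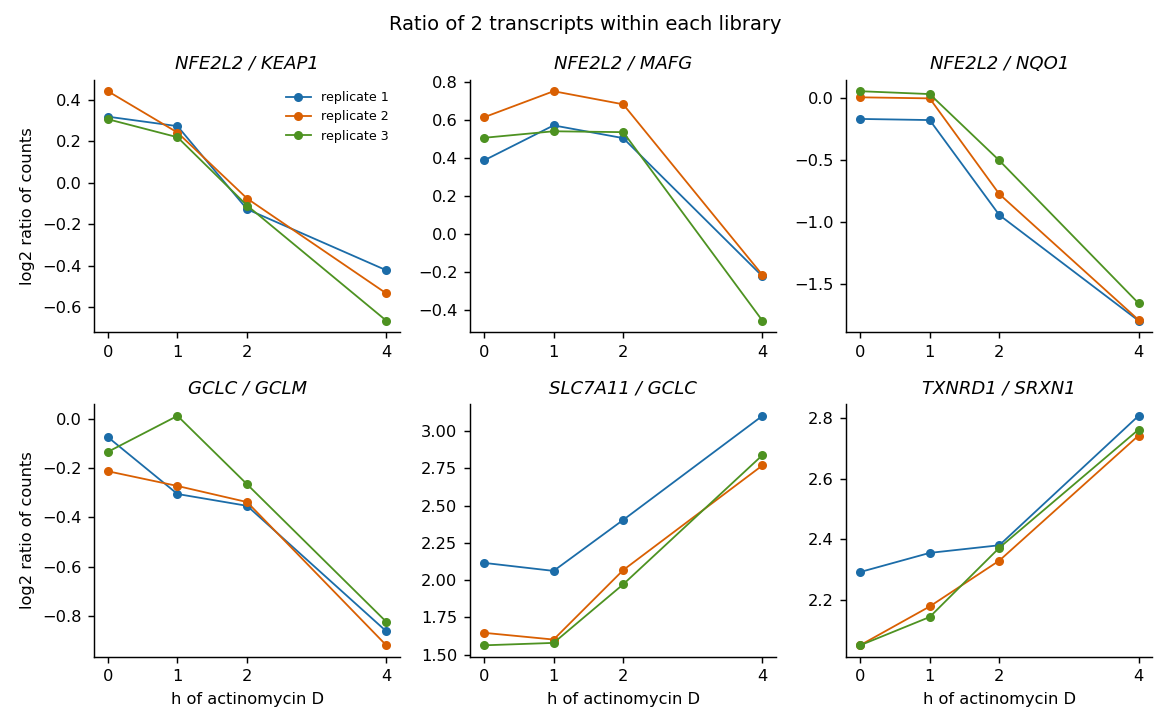
Log2 ratio of the counts of 2 transcripts in the same library (y axis; the scale differs between panels) against hours of actinomycin D (x axis), with a line for each of 3 replicates. NFE2L2 to MAFG stays level to 2 h before it drops, whereas NFE2L2 to KEAP1 declines from 1 h on.

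Regulators and targets did not separate cleanly. The mean slope of the 3 regulators was -0.21, -0.22 and -0.22 in replicates 1, 2 and 3, and that of the 6 targets -0.044, -0.053 and -0.084. The difference, targets minus regulators, was 0.157 ± 0.014 log2 units per hour (mean ± SD, n = 3). It is given with no test, since the genes were chosen with results of these data known. All 3 regulators fell and 3 of the 6 targets did, and the slope of GCLC (-0.26), a target, lay between those of NFE2L2 (-0.36) and MAFG (-0.15).

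The time points also show when each transcript moved (edgeR, time as 4 groups). From 0 to 1 h none of the 9 was called, against 2.24% of all tested genes lower and 0.349% higher, and 1 of them, MAFG, had an unadjusted p under 0.05 (0.025). From 1 to 2 h NFE2L2 fell by 0.43 on the log2 scale (SE 0.073, adjusted p = 0.00107, edgeR) and MAFG fell by 0.38 (SE 0.092, adjusted p = 0.0118, edgeR), against 12.5% of genes lower and 3.76% higher. From 2 to 4 h 4 members fell, against 18.3% of genes lower and 12% higher. NFE2L2 fell by 0.86 (adjusted p = 3.99e-06, edgeR), GCLC by 0.74 (adjusted p = 5.65e-06, edgeR), KEAP1 by 0.43 (adjusted p = 1.72e-04, edgeR) and SRXN1 by 0.40 (adjusted p = 0.0164, edgeR). MAFG changed by 0.0022 (SE 0.094, adjusted p = 0.990, edgeR) in that interval relative to the TMM scaling. The calls of NFE2L2 and MAFG from 1 to 2 h and of SRXN1 from 2 to 4 h were lost without replicate 2, and that of MAFG also without replicate 3.

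The interval calls moved with the scaling, which was varied here after the values were seen. No member was called from 0 to 1 h under library totals or under scaling to GAPDH and ACTB (lowest adjusted p 0.0543, edgeR, for MAFG under the latter). From 1 to 2 h GCLC joined NFE2L2 and MAFG under both (-0.25, adjusted p = 0.0132, and -0.32, adjusted p = 0.0244, edgeR), against 15.7% of genes lower and 0.964% higher under library totals and 17.3% and 0.00831% under GAPDH and ACTB. From 2 to 4 h library totals added GCLM (-0.28, adjusted p = 0.0181, edgeR), against 23.1% of genes lower and 4.79% higher. Scaling to GAPDH and ACTB called 7 members lower in that interval, with GCLM (-0.50, adjusted p = 5.27e-04, edgeR), MAFG (-0.30, adjusted p = 0.0217, edgeR) and TXNRD1 (-0.30, adjusted p = 0.0232, edgeR) added, against 40.4% of genes lower and 0.0748% higher. The median change of all tested genes from 2 to 4 h was -0.28 under that scaling, so MAFG and TXNRD1 lay close to it.

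Over the whole course, 4 h against 0 h, the same 6 members were lower and none higher, against 31.6% of genes lower and 28.7% higher. The level at 4 h was 0.38 times that at 0 h for NFE2L2, 0.48 times for GCLC, 0.66 times for SRXN1 and for MAFG, 0.70 times for KEAP1 and 0.80 times for GCLM. NQO1 stood at 1.24 times (unadjusted p = 0.040, adjusted p = 0.0642, edgeR), and DESeq2 also called 0 members higher. Scaled to GAPDH and ACTB, NQO1 was instead lower at 4 h (-0.24 on the log2 scale, adjusted p = 0.0470, edgeR).

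With the replicate block more intervals passed. From 0 to 1 h MAFG (-0.23, adjusted p = 8.09e-04, edgeR) and SLC7A11 (-0.15, adjusted p = 0.0108, edgeR) were lower, against 10.5% of genes lower and 6.18% higher. From 1 to 2 h GCLC was lower (-0.19, adjusted p = 0.0115, edgeR) and NQO1 (0.27, adjusted p = 1.94e-05, edgeR) and SLC7A11 (0.21, adjusted p = 8.96e-05, edgeR) higher, against 20.7% and 17%. Without the block neither change of SLC7A11 passed (adjusted p = 0.787 and 0.448, edgeR), and under scaling to GAPDH and ACTB they were -0.27 and 0.082. From 2 to 4 h GCLM was lower (-0.19, adjusted p = 0.0110, edgeR) and NQO1 higher (0.14, adjusted p = 0.0101, edgeR), against 25.3% in either direction. At 4 h against 0 h NQO1 was higher by 0.31 (SE 0.045, adjusted p = 3.40e-07, edgeR), against 36% of genes lower and 36.8% higher.

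**Figure D4:**
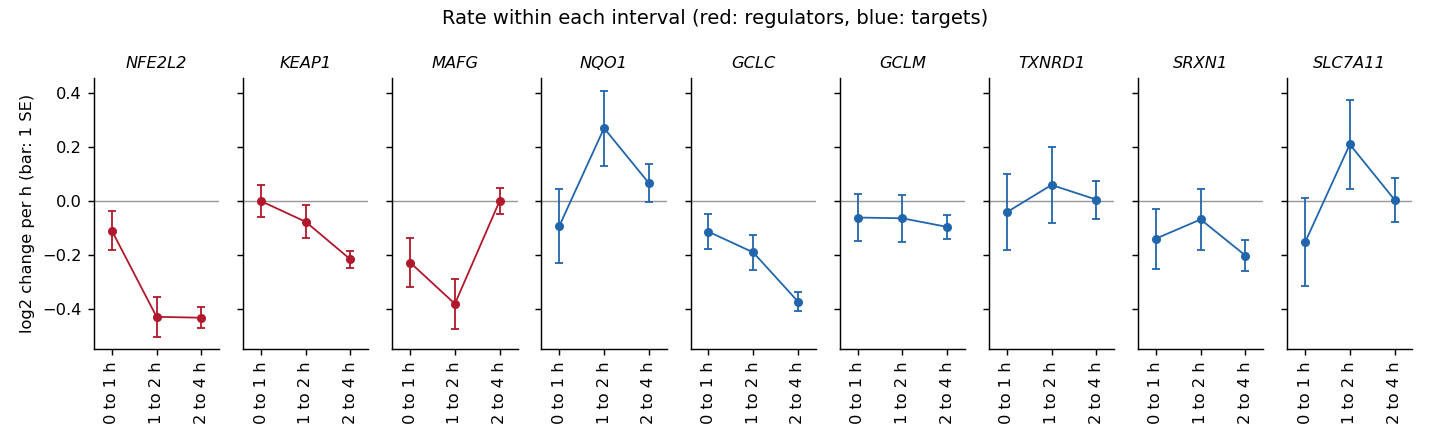
Log2 change per hour (y axis, bars of 1 SE, without the replicate block) of each transcript in the intervals from 0 to 1, 1 to 2 and 2 to 4 h (x axis). NFE2L2 changes by -0.11, -0.43 and -0.43 per hour and GCLC by -0.11, -0.19 and -0.37, while MAFG goes from -0.23 and -0.38 to 0.0011.

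The shape of the decline differed between members. Per hour, NFE2L2 changed by -0.11, -0.43 and -0.43 in the 3 intervals, KEAP1 by 0.00038, -0.076 and -0.22, and GCLC by -0.11, -0.19 and -0.37, with the smallest change in the first hour. A term for the square of time, added after the values were seen, passed for none of the members (lowest adjusted p 0.0669 for GCLC, edgeR), against 0.54% of genes negative and 0.972% positive. The unadjusted p was under 0.05 for NFE2L2, KEAP1, MAFG and GCLC. With the replicate block the term was negative for NFE2L2 (adjusted p = 0.0115, edgeR), KEAP1 (adjusted p = 0.00726, edgeR) and GCLC (adjusted p = 0.0154, edgeR) and positive for MAFG (adjusted p = 0.00578, edgeR), against 2.78% of genes negative and 2.2% positive. 

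Transcripts with AU-rich elements in the 3′ untranslated region, built from the pentamer ATTTA (DNA letters, read on the sense strand), are often short-lived, and the overlapping nonamer TTATTTATT is the stricter form. In the canonical GENCODE version 44 models on GRCh38, all 9 members held an ATTTA, as did 75.1% of the 3′ untranslated regions of tested genes. NFE2L2, the steepest of the 9, had 3 of them in 477 bases, GCLC 2 in 1415 bases and GCLM 12 in 3791 bases. Per kb that was 6.29 for NFE2L2, the highest of the 9, 1.41 for GCLC and 3.17 for GCLM. TXNRD1 had 3.18 and SLC7A11 4.07 per kb, and the median of tested 3′ untranslated regions was 1.78. Whether these elements bear on the slopes was not tested. The nonamer was in 10.1% of tested 3′ untranslated regions and in 2 members, TXNRD1 (2 overlapping copies) and SLC7A11 (1 copy among 32 pentamers in 7859 bases). These are the 2 members whose slope passed in neither direction. The sites are printed to set the nonamers of transcripts whose slope did not pass beside isolated pentamers of the 2 that fell most, with the element in capitals.
TXNRD1 nonamer, chr12:104349984-104350013, plus strand: atattcagttTTATTTATTtatttttaatt
SLC7A11 nonamer, chr4:138169539-138169568, minus strand: agactttaatTTATTTATTtttgatttgaa
NFE2L2 pentamer, chr2:177230507-177230536, minus strand: ctacaaaaacttATTTAtactgttcttatg
GCLC pentamer, chr6:53498346-53498375, minus strand: acctgggacctgATTTAttgaaatttttct
A match of letters is a description and does not show that a protein binds there.

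The promoters were searched for the core of the antioxidant response element, TGACNNNGC, on both strands of RefSeq windows of GRCh38.p14 around each transcription start. Each window ran from 250 bases before the start to 50 bases after it, so elements farther away were not searched. It was in 14.5% of 13522 windows of tested genes. Of the members, 8 had at least 1 window, 11 windows in all, and 4 windows of 3 genes held the core: GCLM, TXNRD1 and KEAP1. These genes fell, did not pass and fell in the time course, respectively. No window was given for SLC7A11. Shown with the core in capitals are the match in GCLM, a match picked from those at an alternative start of the inhibitor KEAP1, and that in the downstream TXNRD1 window.
GCLM, chr1:93909445-93909474, plus strand: ctggaagacaaTGACTAAGCagaaatcgta
KEAP1, chr19:10502783-10502812, plus strand: gcaggtcaccaTGACTAAGCagagccgggc
TXNRD1, chr12:104286920-104286949, minus strand: cagagtcagaaTGACAAAGCagaaatccac
The printed cores of GCLM and KEAP1 were letter for letter the same, though another core in that KEAP1 window read TGACACGGC. Both printed cores lay upstream of the start of their windows' transcripts. For KEAP1 that start is an alternative one inside the canonical model, and the window at the canonical start held no core.

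The members lie on 9 different chromosomes. In the canonical models NFE2L2 spans chr2:177230308-177264727 with 5 exons, KEAP1 chr19:10486125-10503356 with 6, MAFG chr17:81918270-81927735 with 3, NQO1 chr16:69709401-69726560 with 6 and GCLC chr6:53497341-53545101 with 16, all on the minus strand. GCLM spans chr1:93885199-93909430 with 7 exons, SRXN1 chr20:646615-653200 with 2 and SLC7A11 chr4:138164097-138242349 with 12, also on the minus strand, and TXNRD1 chr12:104215779-104350307 with 17 on the plus strand.

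The wider pathway was read from 6 lists of 94 genes, of which 89 were tested. By the slope over 0 to 4 h 19 of these fell (21.3%, against 32.1% of all tested genes), 53 rose (59.6%, against 30.7%) and 17 did not pass, with a median slope of 0.084 against 0.0093 over all tested genes. Under library totals 22 list genes fell and 38 rose, against 4702 and 2244 of all tested genes. Under DESeq2 size factors 19 fell and 52 rose, against 3856 and 3703. When scaled to GAPDH and ACTB, 39 fell and none rose (edgeR, also 0 at an unadjusted p under 0.05). The rises were thus lost under this last scaling, where 64.2% of all tested genes fell and 0.931% rose.

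The list of NRF2-related factors and of the KEAP1 ligase had the lowest median, -0.10, with 8 of 17 genes falling (47.1%) and 5 rising (29.4%, near the 30.7% of all tested genes). PALB2, a partner of BRCA2 in DNA repair that also binds KEAP1, had 34.7, 37.6 and 34.9 CPM at 0 h and 6.86, 5.22 and 3.92 CPM at 4 h, a slope of -0.72 (adjusted p = 2.59e-08, edgeR). DPP3, a peptidase that binds KEAP1, rose from 89.1 ± 3.31 to 134.2 ± 9.02 CPM (slope 0.15, adjusted p = 3.37e-07, edgeR). BACH1, the repressor that competes with NRF2 for the same elements, fell with a slope of -0.42 (adjusted p = 4.07e-09, edgeR), steeper in value than NFE2L2, and the ligase scaffold CUL3 fell with a slope of -0.16 (adjusted p = 8.22e-07, edgeR). These last 2 genes, and HMOX1 below, were named after their values were seen.

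In the other 5 lists more genes rose than fell. Of 22 genes of glutathione synthesis and use 3 fell and 15 rose (68.2%, median 0.10), of 15 of the thioredoxin and peroxiredoxin system 4 fell and 9 rose (60.0%, median 0.11), and of 21 other NRF2 targets 4 fell and 12 rose (57.1%, median 0.079). Of the 7 NADPH-generating enzymes 6 rose (85.7%, median 0.14). The list on superoxide and hydrogen peroxide held SOD1, SOD2 and CAT, and also PRNP, MSRA, MSRB2 and PARK7. Of these 7 genes 6 rose (85.7%, median 0.090).

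At the falling end stood CHAC1, which degrades glutathione and had 4.72 ± 1.44 CPM at 0 h and 0.18 ± 0.13 CPM at 4 h (slope -1.35, adjusted p = 1.32e-06, edgeR). CHAC1 averaged only 21.8 counts per library, so its 4 h level rests on very few reads. TXNIP, the inhibitor of thioredoxin, fell from 33.5 ± 6.16 to 5.97 ± 0.72 CPM (slope -0.65, adjusted p = 1.51e-06, edgeR). OSGIN1, an oxidative stress-induced growth inhibitor, fell from 7.53 ± 1.64 to 3.36 ± 0.75 CPM (slope -0.30, adjusted p = 0.00141, edgeR). HMOX1, haem oxygenase, fell with a slope of -0.28 (adjusted p = 0.0465, edgeR).

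At the rising end stood 4 genes of different lists. PRDX2, a peroxiredoxin, rose from 150.3 ± 8.86 to 239.0 ± 14.4 CPM (slope 0.17, adjusted p = 1.48e-07, edgeR). FTL, the ferritin light chain, rose from 2118 ± 298.0 to 3216 ± 547.1 CPM (slope 0.16, adjusted p = 4.42e-04, edgeR) and PARK7 from 204.0 ± 1.86 to 285.0 ± 4.42 CPM (slope 0.13, adjusted p = 2.29e-07, edgeR). GSTM2 rose with a slope of 0.18 (adjusted p = 0.00868, edgeR), but it has near-identical paralogs among which reads may have been split.

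**Figure D5:**
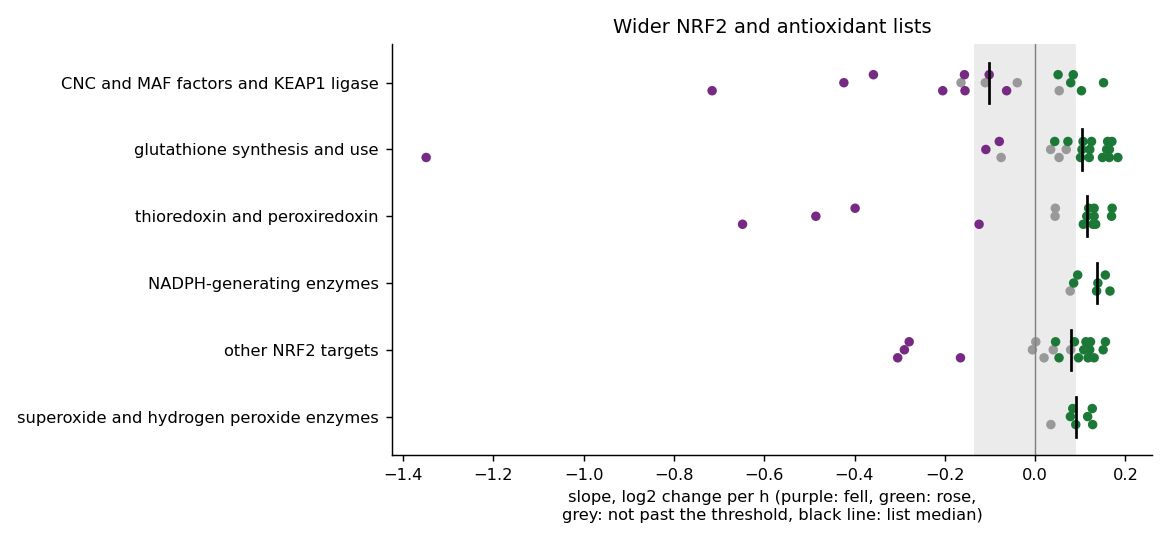
Slope in time (x axis, log2 change per hour, TMM) of each tested gene of 6 lists (y axis), purple where it fell, green where it rose and grey where it did not pass, with a black line at the list's median and a grey band from the 25th to the 75th percentile of all tested genes. The factor and ligase list has its median at -0.10, and the other 5 medians lie between 0.079 and 0.14.

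The genes whose mean log2 changes from 0 h at 1, 2 and 4 h lay nearest to those of NFE2L2 (-0.11, -0.54 and -1.40), by Euclidean distance among the 8855 genes that averaged 100 or more counts, were TRIM27, SHOC2, KAT7, POLD3 and MFHAS1, at distances of 0.033 to 0.050. TRIM27, the nearest, changed by -0.12, -0.54 and -1.43. For NQO1 (-0.10, 0.17 and 0.30) they were HSPE1, RNASEH1-AS1, SUCLG2, CYCS and PHKB, at distances of 0.013 to 0.026, with HSPE1 at -0.10, 0.16 and 0.29. No member and no gene of the wider lists was among either 5.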

How the data were processed

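Libraries were made with a stranded poly(A) kit, per the labels. The authors deposited a table of raw counts per gene symbol; the submitters' processing notes name FastQC, STAR and hg19, while the counter, its strand setting and versions are not given in the sources used here. Coordinates and sequences are from GENCODE version 44 on GRCh38 and RefSeq on GRCh38.p14, another build than hg19, and no coordinate was converted.

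The 12032 genes averaging 10 or more counts per library were kept. Slopes and contrasts were fitted to all 12 libraries with edgeR 4.0.16 in R 4.3.3 (TMM, quasi-likelihood test, Benjamini-Hochberg over all tested genes, threshold 0.05) and were tested on simulated data. Half-lives are -1 divided by a negative slope that passed, and so assume a straight line. Under TMM those of KEAP1, MAFG, SRXN1 and GCLM were longer than the 4 h observed. Ratios used log2 counts with a pseudocount of 0.5 (numpy 2.4.6). SE is the standard error, SD the standard deviation. Counts per library of 9147018 to 11194705 limit the precision of low genes, and intervals cover the spread between replicates, not other clones or lines. Alternatives were library totals, DESeq2 1.42.0 and its size factors, scaling to GAPDH and ACTB, other count filters, the 1, 2 and 4 h libraries alone, a replicate block and leaving out each replicate.

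The replicate number paired the libraries: deviations from the group means correlated at 0.300 to 0.612 in 18 pairs with the same number and at -0.403 to 0.084 in 36 with different numbers. Deviations of the 3 libraries of a time sum to 0, which pushes the second range below 0, so it is no separate evidence of pairing. Replicates of each time differed by more than counting noise (chi-square per degree of freedom 3.20 to 8.65 in 12 pairs), so each counted as 1 sample. Named genes were the members, the list genes with the most negative and most positive slope past the threshold, the 5 genes nearest NFE2L2 and NQO1, and MYC, GAPDH and ACTB; 1 gene this rule names is not reported here. The members and lists were chosen with earlier results of these data known.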

Additional observations from a re-analysis of the deposited data

How the results depend on the processing

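Each slope of the 6 falling members kept its sign and its side of the threshold under all 11 alternatives (highest adjusted p 0.0232, edgeR, for GCLM without the 0 h libraries, where KEAP1 was at -0.18 and MAFG at -0.12), and so did the 6 pair ratios in 36 alternatives (highest adjusted p 0.029, exact permutation test). With the replicate block 6 members fell and 1 rose, and of the wider lists 23 genes fell and 57 rose. Of all 12032 tested genes, 4182 fell and 4356 rose with the block. Of the 9 members no call of a slope changed with the block, nor of 4 h against 0 h other than that of NQO1 (0.31), and the interval calls that did are given beside the results.

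No member rose under library totals or scaling to GAPDH and ACTB (count 0), where NQO1 had slopes of 0.054 and -0.046, TXNRD1 -0.027 and -0.13 and SLC7A11 -0.0073 and -0.11. By 4 h against 0 h the scaling to GAPDH and ACTB called all 9 members lower. It gave -0.24 for NQO1 (adjusted p = 0.0470, edgeR), -0.52 for TXNRD1 (adjusted p = 2.27e-04, edgeR) and -0.48 for SLC7A11 (adjusted p = 0.00308, edgeR). The share of all tested genes called lower by this contrast and scaling is not given here. In the same contrast library totals gave -0.12 for TXNRD1 and -0.078 for SLC7A11. Under GAPDH and ACTB 39 list genes fell and 0 rose, and 7729 of all tested genes fell and 112 rose; under library totals 2244 rose, against 3694 as reported. With no count filter and with the replicate block 1 member, NQO1, was higher at 4 h than at 0 h. The targets minus regulators difference was 0.117 by medians.

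Leaving out 1 replicate gave 6 falling members each time, 0 to 1 rising, 0 to 1 higher at 4 h (NQO1, without replicate 3), 16 to 20 falling and 45 to 50 rising list genes, and 0.151 to 0.165 for targets minus regulators. Of all tested genes, 3468 to 3682 then fell and 2968 to 3329 rose. NQO1 lost its rise without replicate 2 (0.088), and TXNRD1 at 4 h against 0 h ran from -0.018 (without replicate 1) to 0.048. The cause of these changes was not tested.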

Other observations

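Some regulators outside the 9 genes also moved. SESN2 and SESN1, stress-induced sestrins that are known to act on peroxiredoxin recycling and on growth signalling, had slopes of -0.49 and -0.40, and GSK3B, a kinase that primes NRF2 for KEAP1-independent degradation, had a slope of -0.36 with a half-life of 2.79 h, beside 2.75 h for NFE2L2. NFE2L1 and SQSTM1, a related factor and an autophagy receptor that sequesters KEAP1, rose with slopes of 0.079 and 0.051. Others did not pass: SESN3 had a slope of 0.045 (adjusted p = 0.736, edgeR). Nor did MAFF, MAFK, NFE2L3 and PGAM5 of the factor and ligase list (lowest adjusted p 0.0540, edgeR, for PGAM5). These genes were named after their values were seen. The wider lists had 19 falling genes of 89 in all (21.3%, against 32.1% of all tested genes).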
